A study of Mus musculus with 6 samples.

Results

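The collagen chain genes were examined in ADC106 cells, a mouse angiosarcoma line, after transfection with a microRNA-497 (miR-497) mimic or a control mimic labelled NC. A chain gene was any protein-coding gene whose whole symbol is Col, a number, the letter a and a number. This gave 44 genes of the 55401 gene identifiers in the count table: 11 chains of the fibrillar collagens, the 6 type IV chains of basement membranes, and 27 chains of all other classes. Both groups were grown in the same medium with serum, received 12.5 nM of mimic and were harvested on day 3, with 3 libraries each. The labels give the genotype of the NC group as WT and that of the other group as miR-497 overexpression. All libraries come from 1 cell line, and the labels do not say whether replicates were separate cultures, so the p-values measure the spread between these libraries only. Untransfected cells were not analysed here.

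Collagens are secreted or membrane-bound proteins in which 3 chains wind into a triple helix. The fibrillar types I, II, III, V, XI, XXIV and XXVII build the cable-like fibrils of connective tissue, and type V chains are incorporated into type I fibrils. Type IV forms the sheet-like network of basement membranes, the thin matrix under endothelium. Angiosarcoma is a malignant tumour of endothelial cells. The other chains attach to fibrils, form beaded microfibrils, anchor epithelium to the matrix, or span the cell membrane.

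A microRNA guides Argonaute proteins to transcripts, mostly in the 3' UTR, through its seed, bases 2 to 8. The mature mouse sequence is shown because it defines the sites looked for in the collagen transcripts. It comes from RefSeq (GRCm38.p6, chr11:70234730-70234751, plus strand), and the capitals mark the seed. The sequence of the mimic itself is not given in the sources used here.
miR-497a-5p: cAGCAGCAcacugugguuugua

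The sites below are from 4 called chains, and from Col12a1, the site-bearing chain with the highest level among those not called. Each lies in the last exon, within the longest annotated 3' UTR of its gene (GENCODE M21, GRCm38), and is shown on the transcript strand. The capitals mark the site: TGCTGCT, which pairs with the seed (a 7mer), or TGCTGCT followed by an A opposite base 1, which lies outside the seed (an 8mer). In Col1a1 a repeat holds 2 overlapping 7mers.
Col1a1, chr11:94952840-94952849, plus strand: cctcccctctTGCTGCTGCTccctcccctc
Col5a1, chr2:28039277-28039283, plus strand: aattgaacaaaTGCTGCTgaaaatacaca
Col24a1, chr3:145551667-145551673, plus strand: tttggaaatttTGCTGCTgttttaaatta
Col4a4, chr1:82450656-82450663, minus strand: cccttcagcctTGCTGCTAgaatattaaca
Col12a1, chr9:79601142-79601148, minus strand: taagtctccagTGCTGCTtacagtttgaa

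The total counts ranged from 25777676 to 36159499 per library. Levels are given as CPM (counts-per-million), the count relative to the TMM-scaled library size, and fold changes are miR-497 over NC. A gene was called when its p in the quasi-likelihood test of edgeR was under 0.05 after Benjamini-Hochberg correction for the 14661 genes tested. The endothelial label was checked against 12 markers. All 12 were detected and tested, with a summed level of 10004 to 10702 CPM in NC and 9388 to 9905 CPM in miR-497 libraries. Of these, 6 were higher (Cdh5, Tek, Tie1, Emcn, Erg and Vwf), 5 lower (Pecam1, Flt1, Eng, Esam and Egfl7) and 1, Kdr, was not called. The largest changes in each direction were in Emcn (log2 fold change 1.03) and Egfl7 (-0.94). Over all tested genes 49.8% were called, and 64.4% of those with a mean of at least 10 CPM. Vwf, called higher, lies under that level, at a mean of 4.17 CPM in NC and 7.29 CPM in miR-497. The 8 fibroblast markers summed to 80.6 to 89.5 CPM in NC and 66.2 to 93.0 CPM in miR-497 libraries. Of these, Pdgfra was highest, at a mean of 43.4 CPM in NC and 46.6 CPM in miR-497, and was not called. Thy1 came next, at 26.6 and 19.2 CPM, and was lower. Fap was also lower, at 2.43 and 0.439 CPM (log2 fold change -2.45, edgeR adjusted p = 0.00017), and no fibroblast marker was higher. Lum was listed at 0 in every library, and Dcn had a mean of 0.0685 CPM in NC and 0.0531 CPM in miR-497. The 8 pericyte and smooth muscle markers summed to 109 to 114 CPM and 117 to 143 CPM. Of these, 1 was higher (Acta2, log2 fold change 0.92, edgeR adjusted p = 1.1e-08). The 2 lower were Pdgfrb (-0.37, edgeR adjusted p = 0.0050) and Notch3 (-1.37, edgeR adjusted p = 0.0019). The 7 haematopoietic markers summed to 9.56 to 10.9 CPM and 16.0 to 21.3 CPM. Most of this sum was Cd68, which was higher, at a mean of 8.25 CPM in NC and 17.5 CPM in miR-497. Lyz2 (log2 fold change -1.73, edgeR adjusted p = 0.0515) and Csf1r (-0.21, edgeR adjusted p = 0.68) were not called. Ptprc, Adgre1, Cd79a and Cd3e, which was at 0, were not tested. The 6 epithelial markers stayed under 1.7 CPM with none called. The part of these markers in the collagen values was not tested. In such bulk samples, fewer cells of a type and less RNA per cell cannot be told apart.

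Of the 44 chains, 34 had enough counts to be tested, 10 were higher with miR-497 and 9 lower. This is 55.9% of the tested chains, against 49.8% of all genes tested. Among all genes, 23.8% were higher and 26.0% lower. Changes of at least 2-fold were found for 8 of the 34 tested chains, 5 higher and 3 lower. Over all genes tested, 8.82% had a called change of that size. The 8 include Col24a1, whose pass through the low-count filter rests on NC, where it is high, so its call adds no support. They also include Col4a4 and Col9a3, which are low and lost their calls when some single libraries were left out. Of the 19 chains with a mean of at least 10 CPM, 13 were called, where 64.4% of all genes at that level were called. In 20 of the 34 tested chains, the 19 called and Col6a3, the NC and miR-497 libraries did not overlap; this held for 57.4% of all genes tested. For Col24a1, Col27a1 and Col28a1, all NC libraries but not all miR-497 libraries were above the cutoff of the low-count filter. The median log2 fold change was -0.15 over the fibrillar chains, 0.24 over the type IV chains and -0.23 over the others, and -0.02 over all genes tested. With a mean count of at least 50 per gene, the fibrillar median was 0.33 and that of the others -0.14. The fibrillar median hides opposite changes, with 4 chains higher and 4 lower. No basement membrane chain was called lower, and 3 of 6 were higher. Among the others 3 were higher, 5 lower and 10 not called.

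**Figure D1:**
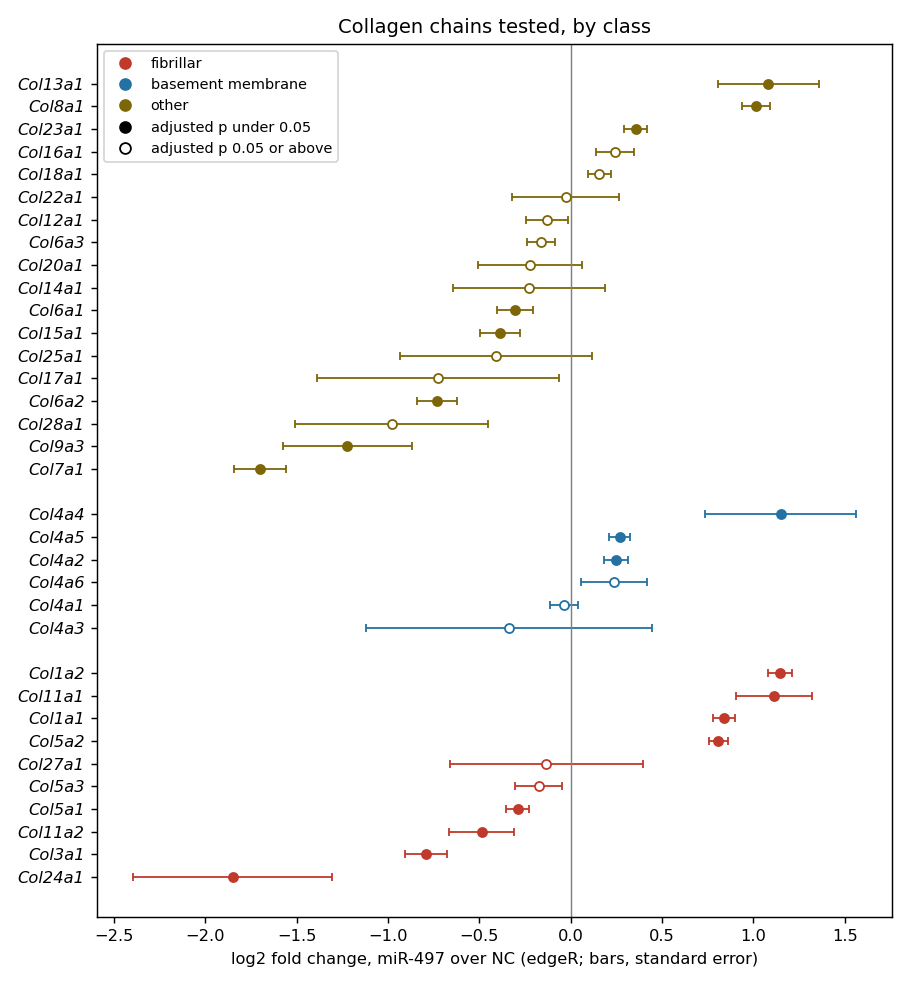
Log2 fold change (x axis, miR-497 over NC, edgeR) of each of the 34 tested collagen chains, with its standard error as a bar, grouped and coloured by class; filled points had an adjusted p under 0.05. The fibrillar chains spread to both sides of 0, from -1.85 to 1.15, while the called type IV chains lie to the right of it.

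Among the fibrillar chains, both type I genes rose. Type I collagen is the main fibril of skin, bone and tendon and is built from pro-alpha1 and pro-alpha2 chains. Col1a2 (ENSMUSG00000029661, chr6:4504814-4541544) was at 123, 135 and 128 CPM in NC libraries 1 to 3 and at 308, 293 and 257 CPM in miR-497 libraries 1 to 3. Every miR-497 library was above every NC library. This was a 2.22-fold rise (log2 1.15, SE 0.0655, edgeR adjusted p = 4.4e-10). Col1a1 (ENSMUSG00000001506, chr11:94936224-94953042) was at 63.4, 61.8 and 60.03 CPM in NC and at 117, 110.1 and 104 CPM in miR-497 libraries. The groups were again apart, with a 1.79-fold rise (log2 0.84, SE 0.0603, edgeR adjusted p = 7.4e-09). The Col1a1 3' UTR of 1423 bases holds the pair of overlapping 7mers shown above, and whether these sites are used was not tested.

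The chains of type V, which joins and regulates type I fibrils, moved in opposite directions. Col5a2 (ENSMUSG00000026042, chr1:45374321-45503282), the alpha2 chain, was at 249.8, 242 and 264 CPM in NC and at 439.8, 438 and 444 CPM in miR-497 libraries. It rose 1.75-fold (log2 0.81, SE 0.0525, edgeR adjusted p = 2.2e-09), with a narrow spread among the miR-497 libraries. Col5a1 (ENSMUSG00000026837, chr2:27886425-28039514), the alpha1 chain, was at 73.3, 76.9 and 74.4 CPM in NC and at 64.2, 61.0 and 58.6 CPM in miR-497 libraries. This was a fall of 1.22-fold (log2 -0.29, SE 0.0614, edgeR adjusted p = 0.00079), and the groups did not overlap. The third chain, Col5a3, was at 12.7 ± 2.08 CPM in NC and 11.2 ± 0.81 CPM in miR-497 (SD, n = 3) and was not called (log2 -0.18, SE 0.128, edgeR adjusted p = 0.27).

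Type III collagen, the fibril of vessel walls and other stretchable tissue, is a trimer of a single chain. Col3a1 (ENSMUSG00000026043, chr1:45311538-45349706) was at 29.8, 28.4 and 25.1 CPM in NC and at 16.3, 18.7 and 13.1 CPM in miR-497 libraries. It fell 1.73-fold (log2 -0.79, SE 0.114, edgeR adjusted p = 1.9e-05), and all miR-497 libraries were below all NC libraries. Col3a1 and Col5a2 are neighbours on chromosome 1, transcribed toward each other with 24614 bases between them, and changed in opposite directions.

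Type XI chains, best known from cartilage fibrils, were low in these cells. Col11a1 was at 4.77, 3.18 and 3.91 CPM in NC and at 9.91, 9.73 and 6.005 CPM in miR-497 libraries, a 2.16-fold rise (log2 1.11, SE 0.208, edgeR adjusted p = 0.00026). Its partner Col11a2 was at 7.07 ± 0.946 CPM in NC and 5.03 ± 0.954 CPM in miR-497 (SD, n = 3). It passed the threshold as lower (log2 -0.49, SE 0.177, edgeR adjusted p = 0.03), but not without NC library 1, miR-497 library 1 or miR-497 library 2, where the edgeR adjusted p was 0.128, 0.113 and 0.0685. Col24a1, a minor fibrillar chain, had 24, 34 and 30 counts in NC and 2, 6 and 14 in miR-497 libraries. It was lower (log2 -1.85, SE 0.545, edgeR adjusted p = 0.0095), at under 1.1 CPM in every library. It passed the low-count filter only through NC, where it is high, so the filter favoured a lower value with miR-497 and its call adds no support. Col27a1 and Col28a1 were also above the filter cutoff in all NC but not all miR-497 libraries, and were not called. The 4 lower fibrillar chains include Col24a1. Without miR-497 library 3 its log2 fold change was -2.67. Col27a1, with 8 to 21 counts per library, was not called, and Col2a1, the main cartilage chain, had too few counts to be tested.

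**Figure D2:**
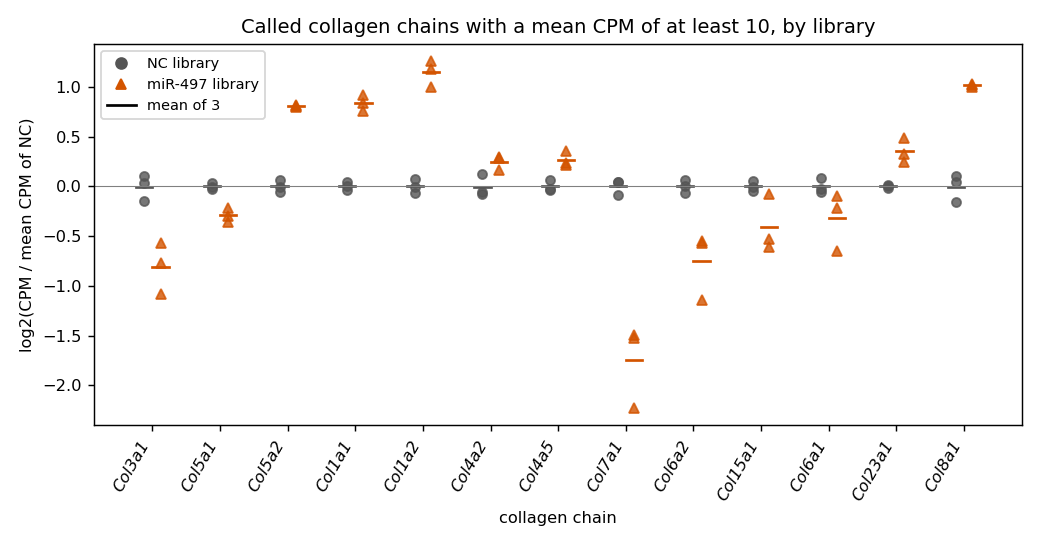
Log2 of each library's CPM over the mean CPM of NC (y axis) for the 13 called collagen chains with a mean of at least 10 CPM; circles are NC and triangles miR-497 libraries, and the short lines are means of 3. Col1a1, Col1a2, Col5a2 and Col8a1 stand between 0.7 and 1.3 above the NC mean in every miR-497 library, and Col7a1 is lowest, most of all in miR-497 library 1.

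The basement membrane chains made up most of the collagen counts and, above 10 CPM, changed by 1.20-fold or less. Col4a1 and Col4a2, the alpha1 and alpha2 chains that form the common type IV trimer of vessel basement membranes, together held 70.9% ± 1.33 of all collagen counts in NC and 68.8% ± 1.07 in miR-497 libraries (SD, n = 3). Col4a1 (ENSMUSG00000031502, chr8:11198423-11312826) was at 3574, 3677 and 4371 CPM in NC and at 3559, 3942 and 3832 CPM in miR-497 libraries. The groups overlapped and it was not called (log2 -0.04, SE 0.0763, edgeR adjusted p = 0.72). Col4a2 (ENSMUSG00000031503, chr8:11312805-11449287) was at 2257, 2301 and 2603 CPM in NC and at 2671, 2903 and 2929 CPM in miR-497 libraries. It rose 1.19-fold (log2 0.25, SE 0.0675, edgeR adjusted p = 0.0056). Without NC library 2 its edgeR adjusted p was 0.0719, at a log2 fold change of 0.22.

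Col4a1 and Col4a2 lie head to head on chromosome 8, on opposite strands, and the annotated genes share 22 bases at their starts. The Col4a1 window is shown because its differently changing partner starts within it. It runs from 250 bases before to 50 after the start site (RefSeq, GRCm38.p6, chr8:11312777-11313076, minus strand), and 78 of its bases are also in the Col4a2 window. The capitals mark CCAAT and GGGCGG on either strand, 1 of each. CCAAT on either strand is present in 37.4% of all 32851 promoter windows of this length and GGGCGG in 35.7%; of the 38 windows found for 35 collagen genes, 34.2% and 60.5% hold them. The 2 motifs do not overlap each other in letters.
Col4a1: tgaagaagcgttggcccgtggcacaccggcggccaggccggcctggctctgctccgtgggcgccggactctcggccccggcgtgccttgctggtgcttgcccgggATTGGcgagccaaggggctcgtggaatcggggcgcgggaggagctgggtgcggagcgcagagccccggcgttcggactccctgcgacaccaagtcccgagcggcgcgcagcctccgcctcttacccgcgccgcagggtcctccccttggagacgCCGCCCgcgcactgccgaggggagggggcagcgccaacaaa

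The minor type IV chains form the networks of kidney, lung and smooth muscle basement membranes. Col4a5 (ENSMUSG00000031274, chrX:141475385-141689234) was at 105, 104 and 111 CPM in NC and at 126, 123 and 136 CPM in miR-497 libraries, without overlap. It rose 1.20-fold (log2 0.27, SE 0.0559, edgeR adjusted p = 0.00072). Its head-to-head neighbour Col4a6 was at 5.44 ± 0.738 and 6.37 ± 1.27 CPM (SD, n = 3) and was not called (log2 0.24, SE 0.181, edgeR adjusted p = 0.30). Col4a4, which carries the 8mer shown above, had 17, 18 and 17 counts in NC and 20, 48 and 38 in miR-497 libraries. It was called higher (log2 1.15, SE 0.413, edgeR adjusted p = 0.029), but not in 4 of the 6 fits that left out 1 library: without NC library 1 or 2, or miR-497 library 2 or 3, the edgeR adjusted p was 0.0700, 0.0870, 0.138 and 0.0769. Col4a3, with 0 to 14 counts per library, was not called.

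All collagen chains together took 0.846%, 0.862% and 0.950% of the counts in the NC group and 0.898%, 0.982% and 0.986% with miR-497, and the groups overlapped. The fibrillar chains took 0.0573% ± 0.000559 of the counts in NC and 0.0934% ± 0.00151 in miR-497 libraries (SD, n = 3). Their share of all collagen counts was 6.49% ± 0.449 in NC and 9.80% ± 0.659 in miR-497 libraries. Type I alone went from 2.17% ± 0.190 to 4.13% ± 0.450 of the collagen counts. These sums are read shares and weight long transcripts more. Per kilobase of the longest coding transcript, Col4a1 had the highest level of all chains in both groups, at 586 ± 65.5 CPM per kb in NC and 571 ± 29.8 in miR-497 libraries (SD, n = 3). Col4a2 came next, at 370.1 ± 29.2 and 439 ± 22.1 CPM per kb, followed by Col18a1, at 209.7 ± 16.2 and 234 ± 13.5. Behind these came Col5a2, Col6a1 and Col6a3, which lay within 36.3 to 38.0 CPM per kb in NC; the order of Col5a2 and Col6a1 there is within their spread. With miR-497, Col5a2 (66.5 ± 0.498 CPM per kb) and Col1a2 (53.5 ± 4.92) stood above Col6a1 (30.7 ± 5.86) and Col6a3 (32.4 ± 4.59). This order turned with the length of all annotated exons, a setting added after the data were seen: per exon kb, Col6a1 (35.4 CPM) was above Col5a2 (26.3 CPM) in NC, and Col1a2 (23.0 CPM) was below Col6a1 (28.7 CPM) and Col6a3 (24.4 CPM) with miR-497.

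**Figure D3:**
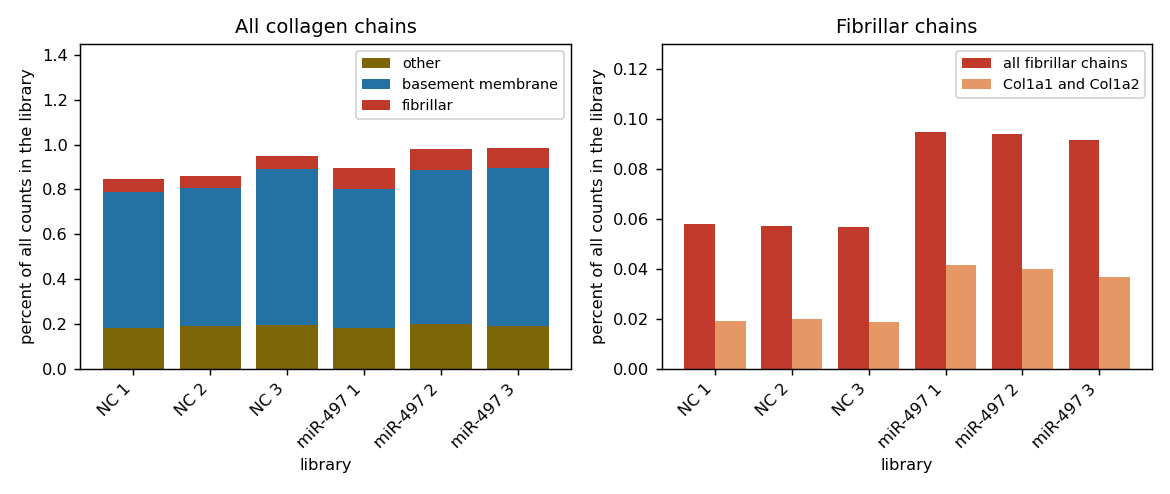
Percent of all counts in each library (y axis) taken by collagen chains, stacked by class (left), and by all fibrillar chains and the type I pair (right), for the 3 NC and 3 miR-497 libraries. Type IV chains make up most of each left bar, and the fibrillar bars are near 0.057% in NC and between 0.0917% and 0.0946% in miR-497 libraries.

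Among the remaining classes, the largest change was in Col7a1, the chain of the anchoring fibrils that tie epidermis to dermis. Col7a1 (ENSMUSG00000025650, chr9:108953586-108984875) was at 24.01, 26.3 and 26.2 CPM in NC and at 5.45, 8.85 and 9.06 CPM in miR-497 libraries. It fell 3.25-fold (log2 -1.70, SE 0.141, edgeR adjusted p = 3.8e-08), with the lowest value in miR-497 library 1. Its 3' UTR of 363 bases has no 7mer or 8mer site for miR-497-5p. In the opposite direction, Col8a1 (ENSMUSG00000068196, chr16:57624258-57754737), a short chain of the network under vascular and corneal endothelium, was at 25.7, 30.9 and 29.6 CPM in NC and at 58.4, 57.6 and 58.5 CPM in miR-497 libraries. It rose 2.02-fold (log2 1.02, SE 0.0764, edgeR adjusted p = 1.2e-08).

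Type VI collagen forms beaded microfibrils near cells from 3 different chains, of which 2 fell. Col6a2 (ENSMUSG00000020241, chr10:76595762-76623630) was at 103, 113 and 108 CPM in NC and at 73.8, 72.7 and 49.1 CPM in miR-497 libraries, a fall of 1.66-fold (log2 -0.73, SE 0.109, edgeR adjusted p = 2.7e-05). Col6a1 (ENSMUSG00000001119, chr10:76708792-76726168) was at 152, 164 and 149 CPM in NC and at 145, 133 and 99.0 CPM in miR-497 libraries (log2 -0.30, SE 0.0970, edgeR adjusted p = 0.015). For all 3 chains miR-497 library 3 was the lowest. Without it the Col6a1 log2 fold change was -0.16 (edgeR adjusted p = 0.0598), and without NC library 2 it was -0.26 (edgeR adjusted p = 0.0579); the DESeq2 Wald test gave an adjusted p of 0.136. The third chain, Col6a3, was at 327, 326 and 328 CPM in NC and at 307, 323 and 245 CPM in miR-497 libraries, without overlap, and was not called (log2 -0.16, SE 0.0772, edgeR adjusted p = 0.089). It passed under 4 of its 14 alternatives, as lower each time.

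The multiplexins Col15a1 and Col18a1 carry heparan or chondroitin sulfate, sit at basement membranes, and release the fragments restin and endostatin. Col15a1 was at 40.5, 42.3 and 39.4 CPM in NC and at 28.1, 38.5 and 26.7 CPM in miR-497 libraries, lower without overlap (log2 -0.39, SE 0.107, edgeR adjusted p = 0.0063). Col18a1 was at 1062 ± 82.2 CPM in NC and 1184 ± 68.1 CPM in miR-497 (SD, n = 3), just outside the threshold (log2 0.16, SE 0.0656, edgeR adjusted p = 0.057). It passed under 8 of its 14 alternatives, as higher each time.

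Of the transmembrane collagens, Col23a1 and Col13a1 were higher. Col23a1 was at 83.8, 82.2 and 83.3 CPM in NC and at 98.7, 104 and 116 CPM in miR-497 libraries (log2 0.36, SE 0.0632, edgeR adjusted p = 0.00016). Col13a1, found at cell adhesions and the neuromuscular junction, was at 1.78, 2.66 and 1.31 CPM in NC and at 4.10, 3.21 and 4.99 CPM in miR-497 libraries (log2 1.08, SE 0.278, edgeR adjusted p = 0.0037). Col17a1 and Col25a1, each under 1 CPM in every library, were not called. Among the FACITs, collagens with interrupted triple helices that sit on the surface of fibrils, only Col9a3 was called in this test. It was at 4.49, 2.41 and 1.95 CPM in NC and at 0.836, 1.20 and 1.74 CPM in miR-497 libraries (log2 -1.22, SE 0.354, edgeR adjusted p = 0.0085). NC library 1 was the highest, and without it the log2 fold change was -0.80 (edgeR adjusted p = 0.0876). Opposite-strand exons cover 6.07% of the exon bases of Col9a3, and the strand setting of the counting is not given in the sources used here.

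Col12a1 and Col16a1 are the FACITs with a mean of at least 10 CPM. Col12a1 was at 16.9 ± 1.12 and 15.5 ± 2.64 CPM (SD, n = 3; log2 -0.13, SE 0.117, edgeR adjusted p = 0.38). Col16a1 was at 19.3 ± 1.16 and 22.9 ± 3.33 CPM (SD, n = 3; log2 0.24, SE 0.104, edgeR adjusted p = 0.062) and passed under 8 of 14 alternatives. Col14a1, Col20a1, Col22a1 and Col28a1 were not called. The 10 chains that were not tested, Col2a1, Col6a4, Col6a5, Col6a6, Col8a2, Col9a1, Col9a2, Col10a1, Col19a1 and Col26a1, had 0 to 32 counts over all 6 libraries. Col10a1, a marker of hypertrophic cartilage, was at 0 throughout; a count of 0 allows up to 3 counts, or 0.0822 to 0.119 CPM, for counting error only.

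Sites for miR-497-5p were then counted over all chains. Of the 34 tested chains, 9 (26.5%) have a 7mer or 8mer, GCTGCTA (7mer-A1) included, in the longest 3' UTR, against 28.1% of the 12859 tested genes with a 3' UTR. Of the 9 chains, 3 were lower, Col5a1 and Col24a1 among them, 2 were higher (Col1a1 and Col4a4) and 4 were not called. Col24a1 passed the low-count filter through NC only, where it is high. Col4a3, Col4a4, Col9a3, Col22a1, Col24a1 and Col25a1 each had a mean of 0.276 to 2.10 CPM over all libraries. The counts and the median of the chains with a site therefore rest in large part on low levels. Of the 25 chains without a site, 8 were higher, 6 lower and 11 not called. Over all genes tested, 23.8% were higher and 26.0% lower. The median log2 fold change was -0.29 with and -0.13 without a site among the chains, and -0.17 and 0.02 among all tested genes.

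Chains of 1 collagen type were then set against each other, since chains that share a trimer are needed in fixed proportion. Not every pair shares one: Col4a1 and Col4a2 form the common type IV trimer, and Col4a5 is a chain of the minor networks. Ratios were computed per library for 22 pairs within types I, IV, V and VI. An exact 2-sided permutation test over 3 against 3 libraries cannot go below 0.1, which is 0.2 after Benjamini-Hochberg adjustment over the 22, so no ratio could pass the threshold. The ratios below are per length of the longest coding transcript. Col1a2 over Col1a1 was 2.16, 2.43 and 2.37 in NC and 2.92, 2.95 and 2.74 in miR-497 libraries, a difference of 0.31 on the log2 scale (exact permutation test, p = 0.1). Both chains rose, Col1a2 by more. With the length of all annotated exons, a setting added after the data were seen, the ratio of the NC means was 1.10.

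Col5a2 over Col5a1 gave the largest difference of the 10 pairs in which both chains had at least 10 CPM. It was 4.32, 3.99 and 4.50 in NC and 8.69, 9.11 and 9.63 in miR-497 libraries (log2 difference 1.10, exact permutation test, p = 0.1). The size of this ratio depends on the length used. Per kb of all annotated exons, Col5a2 was at 26.3 and Col5a1 at 8.82 CPM in NC, and at 46.0 and 7.22 CPM with miR-497. This makes the ratio lower in both groups. Col4a2 over Col4a1 was 0.648, 0.642 and 0.611 in NC and 0.770, 0.755 and 0.784 in miR-497 libraries (log2 difference 0.28, exact permutation test, p = 0.1). The spread of this ratio within a group was smaller than that of either chain's own level. Col6a2 over Col6a1 was 0.596, 0.605 and 0.641 in NC and 0.448, 0.481 and 0.437 in miR-497 libraries (log2 difference -0.43, exact permutation test, p = 0.1). With the length of all annotated exons, Col6a2 was at 12.98 and Col6a1 at 35.4 CPM per kb in NC, which makes the ratio lower by more than 1.5 times. In miR-497 library 3, where all type VI chains were lowest, this ratio was close to that of the other miR-497 libraries. Col4a5 over Col4a2 differed by 0.02 on the log2 scale (exact permutation test, p = 0.7), and the groups overlapped.

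**Figure D4:**
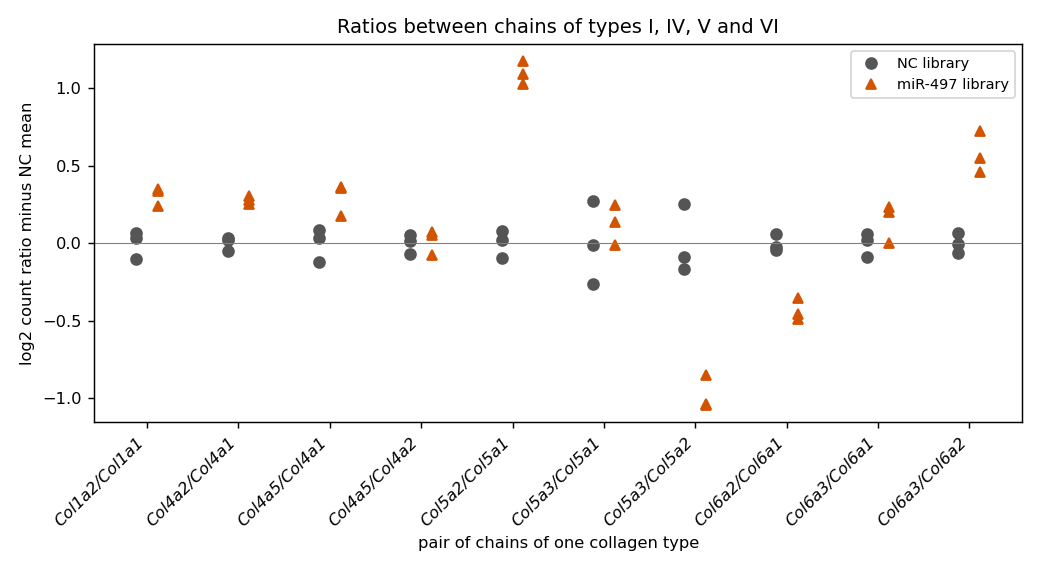
Log2 count ratio of the chains of 1 collagen type minus its NC mean (y axis) for 10 pairs of chains, with circles for NC and triangles for miR-497 libraries. The largest shift upward is Col5a2 over Col5a1 and the largest downward is Col5a3 over Col5a2, at 1.10 and -0.98 on the log2 scale.

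The genes that modify, export, process and bind collagen were counted from the same fit. Of 67 listed genes 59 were tested, 18 were higher and 15 lower, with a median log2 fold change of 0.10 (-0.02 over all genes tested). Over all genes tested, 49.8% were called, 23.8% as higher and 26.0% as lower, and the counts of the lists below stand against these shares. Of the 8 genes of folding and export, 6 were higher and 1 lower, all by less than 1.5-fold. Over all genes tested, 23.8% were higher. The called genes of this list all had a mean of at least 10 CPM, a level at which 2801 of 8963 genes were higher. Fkbp10 was just inside the threshold (log2 0.13, edgeR adjusted p = 0.045). The lower gene was Fkbp14, a prolyl isomerase. The higher ones include Serpinh1, the collagen chaperone HSP47 (log2 0.23, SE 0.0680, edgeR adjusted p = 0.0088), and Mia3, which loads procollagen into transport carriers (log2 0.25, SE 0.0582, edgeR adjusted p = 0.0020). The 15 genes of hydroxylation and glycosylation were split, with 5 higher (P4ha3, P4hb, P3h1, Plod1 and Colgalt2) and 5 lower (P3h3, P3h4, Ppib, Plod3 and Colgalt1). Colgalt2 and Colgalt1 add galactose to hydroxylysine. Colgalt2 rose from 8.51 ± 0.742 to 24.4 ± 2.89 CPM and Colgalt1 fell from 236 ± 9.38 to 155 ± 12.9 CPM (SD, n = 3; log2 1.52 and -0.61, edgeR adjusted p = 8.9e-09 and 4e-07). The prolyl 3-hydroxylases also diverged. P3h1 rose from 76.4 ± 0.872 to 121 ± 3.14 CPM and P3h3 fell from 69.1 ± 5.36 to 35.6 ± 1.62 CPM (SD, n = 3; log2 0.66 and -0.96, edgeR adjusted p = 2.6e-08 and 1.4e-08). Plod1, a lysyl hydroxylase, rose from 187 ± 7.07 to 324 ± 7.61 CPM (SD, n = 3; log2 0.79, edgeR adjusted p = 2.3e-09).

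Of the 8 procollagen processing genes, 3 were lower and none higher, a smaller called share than the 49.8% over all genes tested. Pcolce, an enhancer of C-propeptide removal, fell from 61.5 ± 4.83 to 22.3 ± 6.19 CPM (SD, n = 3; log2 -1.47, SE 0.135, edgeR adjusted p = 1.2e-07). Adamts2, which removes the N-propeptide of fibrillar procollagens, fell from 22.8 ± 1.30 to 10.5 ± 2.49 CPM (SD, n = 3; log2 -1.12, SE 0.136, edgeR adjusted p = 3.1e-06). Tll1, a C-propeptide protease of the Bmp1 family, was lower at 4.07 ± 0.539 and 2.70 ± 0.105 CPM (SD, n = 3; log2 -0.59, edgeR adjusted p = 0.029). Bmp1 itself was not called (log2 0.11, SE 0.0484, edgeR adjusted p = 0.078). Of the 7 cross-linking genes Tgm2, a transglutaminase, was higher (log2 0.36, edgeR adjusted p = 0.023), and 2 lysyl oxidases were lower: Loxl2 (log2 -0.73, edgeR adjusted p = 4.6e-07) and Loxl4 (log2 -1.24, edgeR adjusted p = 4.9e-09).

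Among 12 tested partners of fibrils and basement membranes, 3 were higher (Fn1, Bgn and Sparcl1) and 4 lower (Agrn, Sparc, Thbs1 and Nid2), where 49.8% of all genes tested were called. Agrn, a heparan sulfate proteoglycan of basement membranes, fell from 240.5 ± 7.32 to 91.3 ± 6.39 CPM (SD, n = 3; log2 -1.40, SE 0.0586, edgeR adjusted p = 1.2e-11). Sparc, which binds collagen, fell from 5791 ± 270.4 to 3182 ± 161 CPM (SD, n = 3; log2 -0.86, SE 0.0652, edgeR adjusted p = 1.2e-08). The type IV network partners Nid1 and Hspg2 were not called (log2 -0.01 and 0.10, edgeR adjusted p = 0.94 and 0.34). Of 9 tested receptors and uptake genes 3 were higher (Cd36, Mrc2 and Itga1) and none lower, where 23.8% of all genes tested were higher. Cd36, a scavenger receptor that binds collagen, rose from 3.83 ± 0.310 to 9.27 ± 1.15 CPM (SD, n = 3; log2 1.27, SE 0.159, edgeR adjusted p = 4.2e-06).

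**Figure D5:**
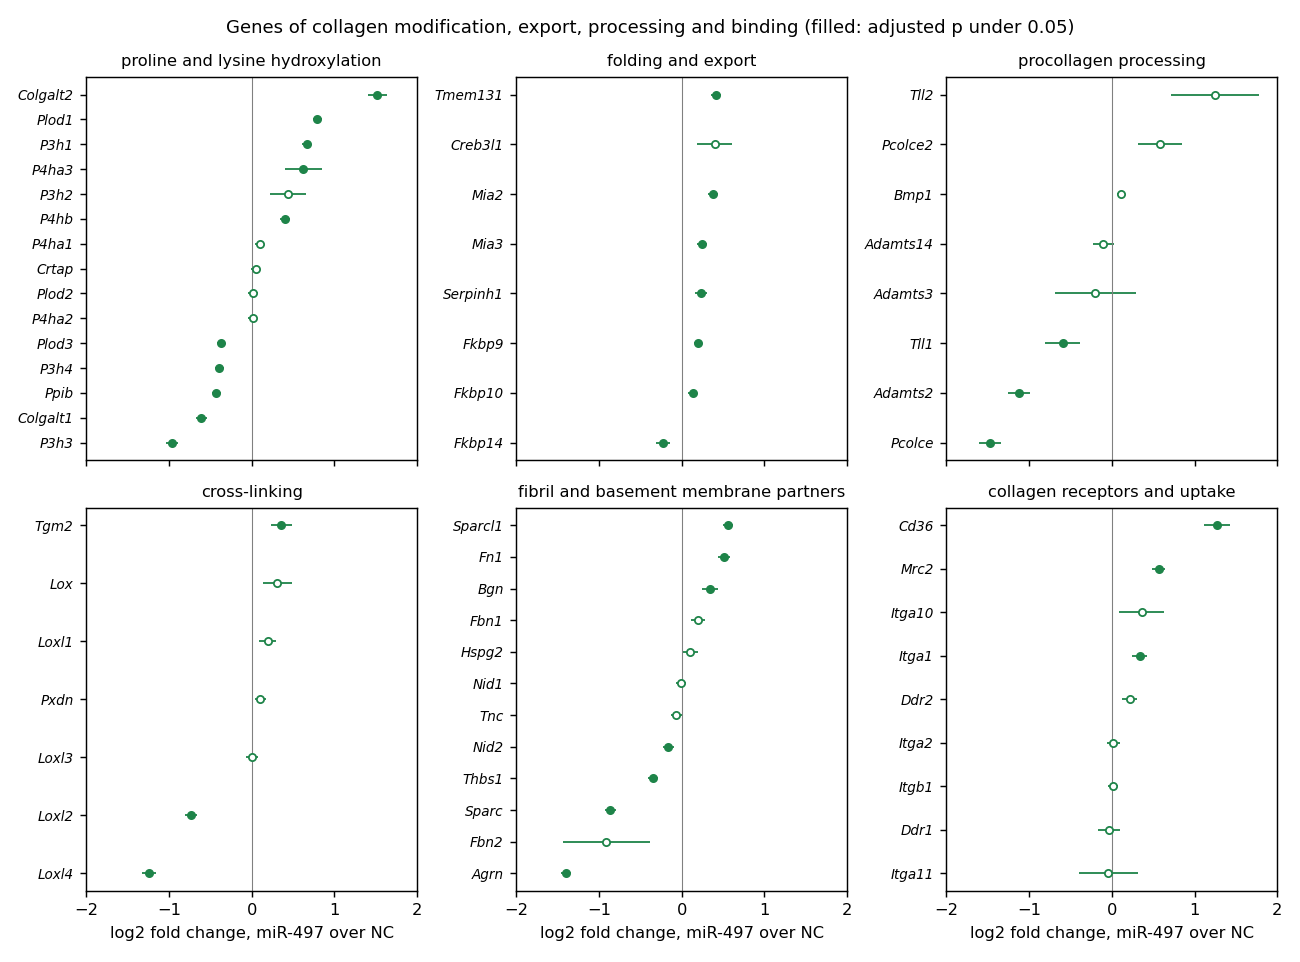
Log2 fold change (x axis, miR-497 over NC, edgeR, bars for the standard error) of 59 tested genes of the collagen pathway in 6 lists; filled points had an adjusted p under 0.05. Folding and export genes lie mostly just right of 0, while Pcolce, Adamts2, Loxl4 and Agrn lie below -1.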

How the data were processed

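Poly(A)-enriched RNA of 3 NC and 3 miR-497 libraries was sequenced, and groups and replicate numbers were taken from the sample titles. The authors deposited raw counts per gene, which they had not normalized. STAR 2.5.4b, featureCounts, Subread 1.6.1, edgeR 3.32.1 and the build GRCm38 are named in the submitters' processing notes. The annotation release, the strand setting and the handling of multiply aligned reads are not given in the sources used here. Symbols, lengths and 3' UTRs came from GENCODE M21 (GRCm38), which matched 55141 of 55401 identifiers. In edgeR 4.0.16 (R 4.3.3), genes were filtered with filterByExpr (minimum count 10, minimum total 15), scaled by TMM and tested with the quasi-likelihood F-test with group as the only term. The code was tested on simulated data. Standard errors are the log2 fold change over the square root of F.

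Called chains were named with values, per library where the mean was at least 10 CPM or the log2 fold change at least 1 in size (a few others likewise), as were chains not called at 10 CPM or more; from each pathway list, called genes with a log2 change of at least 0.58 in size were named, up to the 3 highest and 3 lowest. Other pathway genes, and the cell type markers, were named outside that rule after their values were seen. The members and lists were chosen with earlier results of these data known. Protein sequences were not used here. Some site sequences are not reported here. Chain ratios used a prior count of 0.5. Alternatives were other scalings (DESeq2 1.42.0 size factors, upper quartile), filters, the DESeq2 Wald test, the replicate block, GC and length offsets, and leaving out each library.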

Additional observations from a re-analysis of the deposited data

How the results depend on the processing

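The tested chains and alternatives formed 468 pairs. Of these, 430 gave the same call as reported, 17 lost the call, 21 gained it and none of the called values reversed. For 25 of the 34 chains, the status as called or not called was the same under every alternative run. Some chains that were not called crossed 0, such as Col4a1, with log2 fold changes from -0.10 to 0.07. The counts stayed within 1.5 times their values under every alternative run: 9 to 12 chains higher and 7 to 10 lower. With the replicate number as a block, 9 chains were higher and 9 lower, with 3177 and 3563 genes in all and 18 and 13 pathway genes. The labels do not say what equal numbers mark. Same-numbered libraries deviated from their group means with correlations of -0.12, -0.04 and -0.13. With 3 libraries per group, these values cannot show whether such libraries share more than a number. Col4a4 was not called with the block alone or with the block and GC and length offsets (edgeR adjusted p = 0.0636 and 0.0713). Col11a2 also lost its call with upper-quartile scaling, with GC and length offsets and with these offsets and the block, at edgeR adjusted p-values of 0.0555, 0.0726 and 0.110. Tested collagen transcripts have a median GC content of 55.4%, against 49.3% over all tested genes.

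With a mean count of at least 50, which removes low chains, the median log2 fold change was 0.33 for the fibrillar chains, in place of -0.15, and -0.14 for the other chains. Leaving out single libraries moved the median of the other chains between -0.36 and -0.17 and that of the fibrillar chains between -0.27 and -0.02. The differences near 0 changed sign when single libraries were left out: Col4a5 over Col4a2 ran from -0.0163 to 0.0626 and Col5a3 over Col5a1 from -0.00777 to 0.261 on the log2 scale. With the shortest 3' UTR, 5 tested chains (14.7%) have a miR-497-5p site in place of 9 (26.5%). Among all tested genes with a 3' UTR the share was 16.6% in place of 28.1%. The cause of these shifts was not tested. The 2 called chains with a mean under 1 CPM were Col24a1 and Col4a4, which rest on 2 to 48 counts per library.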
